A study of Homo sapiens with 6 samples.

Results

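The collagen chains are the genes whose names follow the pattern of COL, a type number, A and a chain number, with pseudogenes and antisense names left out. There are 44 of them among the 56505 rows of the count table, and 33 of the 44 passed the filter on low counts, as did 19567 rows in all. RNA was sequenced in 6 libraries from cells labelled MDA-MB-468, an established line from a basal-like human breast carcinoma without hormone receptors, grown in serum-supplemented medium with no treatment. A control hairpin was expressed in 3 of them (shControl), and the others expressed a hairpin against cytokeratin 5, the product of KRT5 (shCK5-22 in the titles, here shCK5). A single knockdown hairpin was sequenced, in the same vector type as the control. The labels do not say whether the replicates were separate cultures, and the p-values then reflect no more than how far these libraries spread.

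Collagens are trimers of chains wound into a triple helix, and each class builds a different structure. Fibrillar collagens form the cables of connective tissue, and FACIT collagens (fibril-associated collagens with interrupted triple helices) sit on the surface of those cables. Type IV collagen makes the sheet of the basement membrane under epithelia, type VI makes beaded microfibrils next to it, type VII ties the basement membrane to the stroma, and transmembrane collagens such as type XVII span the cell membrane. In breast tissue most fibrillar collagen is made by stromal fibroblasts, while epithelial cells contribute basement membrane and hemidesmosome collagens.

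Levels are CPM, a gene's count scaled to its library's total after correction by TMM, a method that centres most genes between libraries, and group values are means ± SD over 3 libraries. Total counts were 68810882 to 83594772 per library. KRT5 was at 2056, 2060 and 2017 CPM in shControl and at 17.2, 15.5 and 16.5 CPM in shCK5. RB1 and SMAD4, which are known to be deleted in this cell line, were at 1.84 to 2.08 and 0.0752 to 0.322 CPM in shControl, but at 98.9 to 103 and 16.3 to 17.4 CPM in the libraries labelled shCK5. The names shControl and shCK5 below are therefore those of the labels, and an effect of the hairpin on collagen genes and a difference between the cells themselves cannot be told apart. A bulk level also does not separate fewer cells of a type from less RNA per cell.

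Collagen genes were found both higher and lower in shCK5, in several cases within 1 class: COL6A1, COL6A2, COL5A1 and COL8A1 were among the higher, COL5A2, COL4A5 and COL26A1 among the lower. Of the 33 tested, 12 were higher in shCK5 and 19 lower by edgeR's quasi-likelihood test (adjusted p under 0.05), and 2 did not pass. Over all genes tested 40.9% were called higher and 41.7% lower, 82.7% in all, against 36.4%, 57.6% and 93.9% of the tested collagens. Of the tested collagens, 26 of 33 passed with more than a 2-fold difference, against 44.0% of all genes tested, and 11 of 33 (33.3%) passed with more than a 32-fold difference, against 5.21%. The median log2 fold change (shCK5 minus shControl, as everywhere below) was -0.84 over the tested collagens and -0.02 over all genes tested. The values of the 3 shCK5 libraries lay wholly above or below those of the 3 shControl libraries in 30 of the 33 collagens, against 84.2% of all genes tested. Genes enter the test only if enough libraries reach about 10 counts, so members at high level in a single group were bound to differ: COL6A1 and COL6A2 reached 10 counts in all 3 shCK5 libraries and in no shControl library, and COL4A3 in all 3 shControl libraries and in no shCK5 library.

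**Figure D1:**
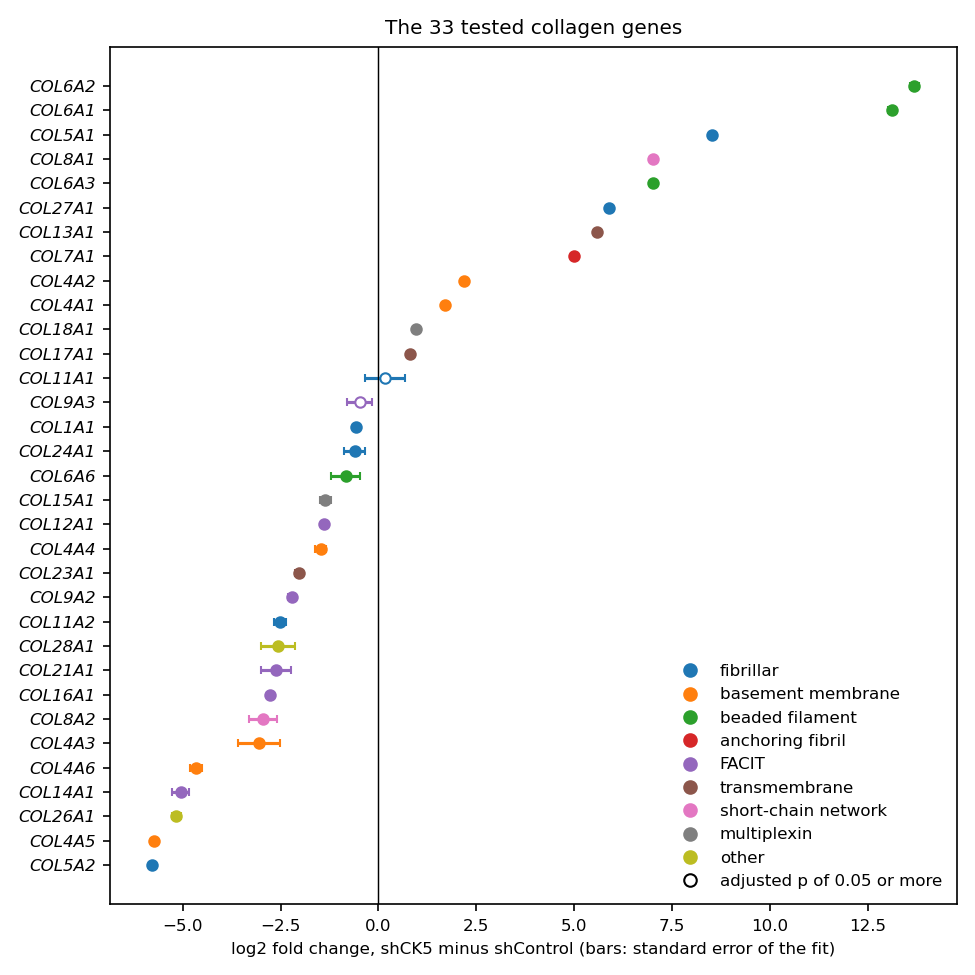
Log2 fold changes of the 33 tested collagen genes (x axis, shCK5 minus shControl), ordered by size and coloured by class. Bars are standard errors derived from the test statistic, and those of COL6A1 and COL6A2 are shorter than the counting error. Open points did not pass an adjusted p of 0.05. The 3 abundant type VI chains lie at 7.0 to 13.68, whereas COL5A2 and COL4A5 lie lowest at -5.79 and -5.72.

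The summed level of collagen transcripts was higher in shCK5 and was divided differently among the chains. To compare genes of different length, CPM were divided by the exon length of each gene in kilobases. Summed over the 44 chains, this level was 58.9, 59.5 and 56.9 CPM per kilobase in the shControl libraries and 295, 297 and 289 in the shCK5 libraries. In shControl the FACIT class held 29.4 ± 0.194% of the sum, basement membrane chains 21.2 ± 0.308%, fibrillar chains 15.7 ± 0.356%, the multiplexins COL15A1 and COL18A1 15.2 ± 0.328%, transmembrane chains 9.09 ± 0.635% and the beaded filament chains of type VI 0.154 ± 0.0275%. In shCK5 the beaded filament chains held 35.7 ± 0.321% and the transmembrane chains 32.4 ± 0.146%, and FACIT chains were down to 1.78 ± 0.109%. The share of the basement membrane class was 8.82 ± 0.0695% in shCK5, although its summed level was 12.4 ± 0.369 CPM per kilobase in shControl and 25.9 ± 0.245 in shCK5. The order of the classes depended on the length used: with the longest transcript of each gene, basement membrane chains led in shControl (32.5%, FACIT chains 25.5%), and in shCK5 transmembrane chains held 36.4%, beaded filament chains 29.5% and basement membrane chains 14.7%. The 3 highest genes per kilobase were COL12A1, COL18A1 and COL5A2 in shControl, with 43.1 ± 0.146% of the sum, and COL13A1, COL6A1 and COL6A2 in shCK5, with 66.3 ± 0.387%. With the longest transcript as length, COL4A2 was among the 3 highest in both groups, at 11.4 ± 0.596 and 52.2 ± 0.928 CPM per kilobase. These sums are a description with no test, since they follow the members' own calls.

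**Figure D2:**
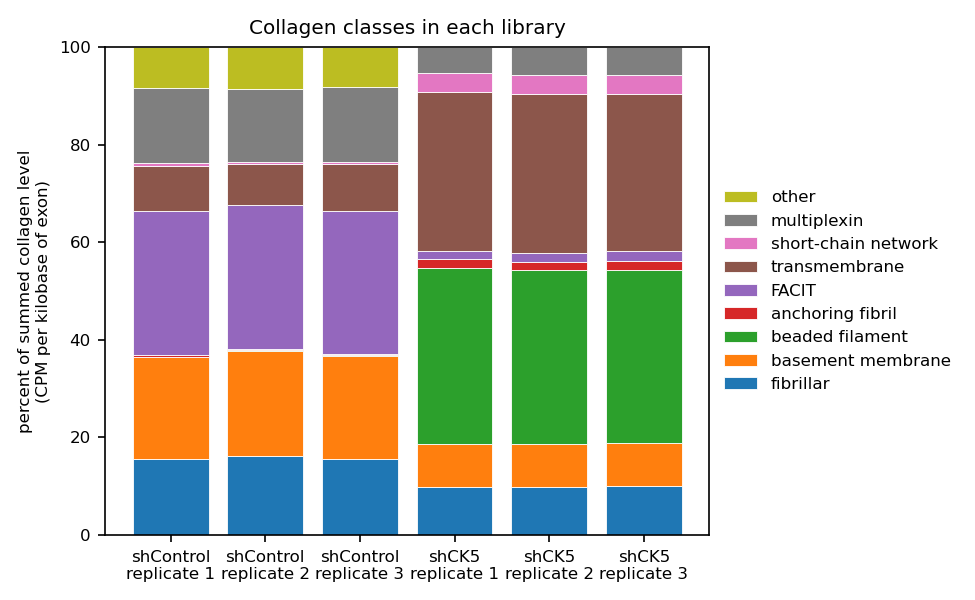
Share of each collagen class (y axis, percent of the summed CPM per kilobase of exon over 44 chains) in each of the 6 libraries (x axis). FACIT chains hold 29.4% on average in shControl and 1.78% in shCK5, and beaded filament chains hold 0.154% and 35.7%.

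Type VI collagen went from almost no transcript to one of the most abundant collagens. Its microfibrils are built from a unit of COL6A1 and COL6A2 chains joined by a longer chain, most often COL6A3. COL6A1 (ENSG00000142156.14, chromosome 21, 45981737 to 46005050, plus strand, GRCh38, protein-coding like all 44) was at 0.107, 0.0251 and 0 CPM in shControl and at 415, 409 and 399 CPM in shCK5. COL6A2 (ENSG00000142173.14, chromosome 21, 46098097 to 46132849, plus strand) was at 0, 0 and 0.0279 CPM in shControl and at 139, 141 and 134 CPM in shCK5. The 3 shControl libraries together held 10 counts of COL6A1 and 2 of COL6A2, against 93065 and 31454 in shCK5, which gives ratios of 9227 (exact 95% interval 5017 to 19243) and 15594 (4316 to 128766). These intervals cover counting error only. The fitted log2 fold changes were 13.12 (SE 0.0921) and 13.68 (SE 0.113), and rested on few shControl counts. The value for COL6A1 went to 14.75 without shControl replicate 1, and that for COL6A2 to 16.36 without shControl replicate 3. These SEs were derived from the test statistic. They are smaller than the counting error and do not show how precise the 2 folds are. COL6A3 (ENSG00000163359.15, chromosome 2, 237324003 to 237414375, minus strand), which lies on another chromosome, was at 0.43, 0.401 and 0.502 CPM in shControl and at 58.3, 57.1 and 55.5 CPM in shCK5 (log2 fold change 7.0, SE 0.0781, adjusted p = 4.09e-29). All 3 chains were therefore under 1 CPM in every shControl library and at 55.5 CPM or more in every shCK5 library.

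The chains of type VI were not equal in shCK5. Per kilobase, COL6A1 exceeded COL6A2 by 3.00, 2.93 and 3.01 times in the 3 shCK5 libraries, a ratio of 2.98 ± 0.0439. With the longest transcript in place of all exons the mean ratio was 2.42. COL6A3 was lower than both, at 2.9 ± 0.071 CPM per kilobase against 76.4 ± 1.5 for COL6A1 and 25.6 ± 0.7 for COL6A2. The other long chains of this type stayed low: COL6A6 was at 0.376, 0.827 and 0.39 CPM in shControl and at 0.34, 0.236 and 0.318 CPM in shCK5, and COL6A5 had 6 and 4 counts per group and was not tested. The call of COL6A6 (log2 fold change -0.84, SE 0.37, adjusted p = 0.0403) depended on single libraries, with an adjusted p of 0.442 without shControl replicate 2, 0.0508 without shCK5 replicate 1, 0.135 without replicate 2 and 0.0644 without replicate 3.

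COL6A1 and COL6A2 stand in tandem on the long arm of chromosome 21, and the genes around them did not share the size of their difference. Within 500 kb on either side, 24 other rows of the table were found, of which 11 were tested. Of these 3 were higher in shCK5, 7 lower and 1 did not pass, against 40.9% higher and 41.7% lower over all genes tested. Their log2 fold changes ran from -5.15 to 4.99. Of the 11, 9 had a mean of at least 1 CPM in shControl. PCBP3, an RNA-binding protein gene upstream, was at 0.185 ± 0.155 CPM in shControl and 5.81 ± 0.169 in shCK5, while LSS, which encodes lanosterol synthase, was at 255 ± 8.37 and 129 ± 3.16 CPM. FTCD, the gene next to COL6A2, was at 0.0904 ± 0.0666 and 0.485 ± 0.121 CPM. SPATC1L, the next tested gene, was at 2.65 ± 0.438 and 21.3 ± 1.25 CPM. PCBP3, FTCD and SPATC1L were the 3 higher genes and the tested ones closest to the pair on their sides. The 7 lower genes began farther out. COL18A1, another collagen gene of this stretch, begins farther out, at 45405137, in the same direction. These neighbours were set by position, and the named ones were picked after their values were seen.

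The stretch before COL6A2 is shown because this gene had the largest fitted difference of the family, beside those of COL13A1, the most abundant collagen of shCK5, and COL5A1, the third in size of difference. Sequences are from RefSeq on GRCh38.p14, 5′ to 3′ on the strand of the gene, and were taken from the 250 bases before the RefSeq start, without any part that GENCODE release 29 annotates as exon. Capitals mark the motifs searched on either strand: the TATA box TATAAA, the CCAAT box, the GC box GGGCGG, the AP-1 site TGANTCA (N is any base) and the E-box CACCTG. A GC box read from the other strand appears as CCGCCC.
COL6A2 (chr21:46097862-46098096, plus strand): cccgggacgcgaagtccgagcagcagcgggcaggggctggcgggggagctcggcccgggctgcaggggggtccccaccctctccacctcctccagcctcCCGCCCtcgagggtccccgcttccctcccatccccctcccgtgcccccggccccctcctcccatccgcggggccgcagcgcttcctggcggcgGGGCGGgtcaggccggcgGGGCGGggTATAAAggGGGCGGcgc
COL13A1 (chr10:69801656-69801866, plus strand): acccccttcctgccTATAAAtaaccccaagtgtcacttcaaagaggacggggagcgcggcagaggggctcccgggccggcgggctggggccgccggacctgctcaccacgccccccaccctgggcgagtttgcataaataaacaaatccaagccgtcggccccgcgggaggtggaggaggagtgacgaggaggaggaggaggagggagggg
COL5A1 (chr9:134641553-134641773, plus strand): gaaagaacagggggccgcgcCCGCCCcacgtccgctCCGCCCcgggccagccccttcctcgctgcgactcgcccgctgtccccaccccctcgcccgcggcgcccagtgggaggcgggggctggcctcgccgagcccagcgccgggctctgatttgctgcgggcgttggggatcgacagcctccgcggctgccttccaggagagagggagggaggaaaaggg
The COL6A2 stretch holds a TATA box close to the start with a GC box on either side of it. The COL13A1 stretch holds a TATA box near its far end, and in the COL5A1 stretch GC boxes alone were found among the motifs searched.

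The set of RefSeq stretches at hand held the 250 bases before the start for 32 of the 44 chains, and for 27305 genes in all. It lacked COL6A1 and COL8A1 of the higher genes and COL5A2, COL1A1 and COL14A1 of the lower ones. The counts below leave these out. The TATA box was present in 4 of 10 higher collagens and 1 of 16 lower ones, against 11.1% of all 27305 stretches. The GC box was in 7 of 10 and 9 of 16, against 42.3%, and the CCAAT box in 3 of 10 and 3 of 16, against 33%. The E-box was in 0 of 10 and 5 of 16, against 17.5%, and the AP-1 site in 0 of the 32, against 6.60%. The median GC content was 69.2% in the 10 higher, 65.2% in the 16 lower and 58% in all stretches. These are counts of letters in a short window, with no test, and motifs of this length occur by chance.

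Type IV collagen split by gene pair. Its 6 genes stand as 3 head-to-head pairs that are read in opposite directions from a short shared space, which by the RefSeq starts spans 126 bases for COL4A1 and COL4A2, 418 for COL4A4 and COL4A3, and 379 for COL4A6 and COL4A5. The COL4A1 and COL4A2 chains form the network found in nearly all basement membranes. COL4A1 (ENSG00000187498.15, chromosome 13, 110148963 to 110307233, minus strand) was at 35.7, 37.7 and 37.1 CPM in shControl and at 119, 118 and 119.5 CPM in shCK5. COL4A2 (ENSG00000134871.18, chromosome 13, 110305812 to 110513209, plus strand) was at 73.1, 78.5 and 70.9 CPM in shControl and at 337, 346 and 334 CPM in shCK5. Both rose, with log2 fold changes of 1.69 (SE 0.0328, adjusted p = 3.17e-24) and 2.19 (SE 0.0329, adjusted p = 1.66e-26), and the groups did not overlap. The per-kilobase ratio of COL4A1 to COL4A2 was 0.64, 0.629 and 0.685 in shControl and 0.463, 0.446 and 0.469 in shCK5. The ratio was lower in every shCK5 library than in any shControl library; its size depends on the lengths used, with means of 0.488 and 0.344 for the longest transcripts.

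The pair on the X chromosome went the other way. COL4A5 and COL4A6 chains build a network found in a few epithelial and smooth muscle basement membranes. COL4A5 (ENSG00000188153.13, 108439844 to 108697545, plus strand) was at 56.6, 58.3 and 54.6 CPM in shControl and at 1.16, 1.21 and 0.83 CPM in shCK5. COL4A6 (ENSG00000197565.15, 108155607 to 108439497, minus strand) was at 8.19, 8.02 and 7.9 CPM in shControl and at 0.378, 0.262 and 0.304 CPM in shCK5. Both fell, by 5.72 (SE 0.076, adjusted p = 1.27e-27) and 4.66 (SE 0.146, adjusted p = 7.96e-20) on the log2 scale. In shControl COL4A5 was at 4.76 ± 0.15 CPM per kilobase of exon, COL4A2 at 3.84 ± 0.2 and COL4A1 at 2.5 ± 0.068. With the longest transcripts as length the order of the first 2 turned, with 8.72 ± 0.283 for COL4A5 and 11.4 ± 0.596 for COL4A2. In shCK5 COL4A5 was at 0.0898 ± 0.017 CPM per kilobase, against 17.6 ± 0.31 for COL4A2. The third pair, COL4A3 and COL4A4, which joins COL4A5 in the basement membrane of the kidney glomerulus, was low and also fell: COL4A4 was at 4.03, 3.54 and 3.71 CPM in shControl and at 1.39, 1.21 and 1.47 CPM in shCK5, and COL4A3 was at 0.377 ± 0.0823 and 0.0438 ± 0.0302 CPM. The COL4A3 fold rested on 10 counts in shCK5, and its log2 value went from -3.06 to -3.74 without shCK5 replicate 2. Each head-to-head pair thus moved in a single direction, 1 pair up and 2 pairs down.

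The space between COL4A6 and COL4A5 is shown as the stretch before each gene, since both genes fell, 53.1-fold and 25.5-fold in the mean, from starts that lie next to each other. Annotated exon covers part of this space next to COL4A6, where 211 bases are shown. Exons also cover part of the space of COL4A4 and COL4A3 and nearly all of that of COL4A1 and COL4A2, and these spaces are not shown.
COL4A5 (chrX:108439588-108439837, plus strand): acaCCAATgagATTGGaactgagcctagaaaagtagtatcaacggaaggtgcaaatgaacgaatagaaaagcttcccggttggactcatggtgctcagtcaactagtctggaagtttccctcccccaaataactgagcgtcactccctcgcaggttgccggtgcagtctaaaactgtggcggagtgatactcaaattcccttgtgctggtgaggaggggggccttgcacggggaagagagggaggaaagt
COL4A6 (chrX:108439498-108439708, minus strand): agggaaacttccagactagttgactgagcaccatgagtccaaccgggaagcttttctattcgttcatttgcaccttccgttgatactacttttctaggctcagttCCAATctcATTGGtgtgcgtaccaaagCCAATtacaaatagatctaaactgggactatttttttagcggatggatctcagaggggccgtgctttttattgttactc
The stretches overlap in the middle of the space, where a CCAAT box on each strand stands in both readings, and the COL4A6 stretch holds one more. Their GC content over 250 bases was 51.2% and 44.0%, below the 77.6% and 78.8% before COL4A1 and COL4A2.

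**Figure D3:**
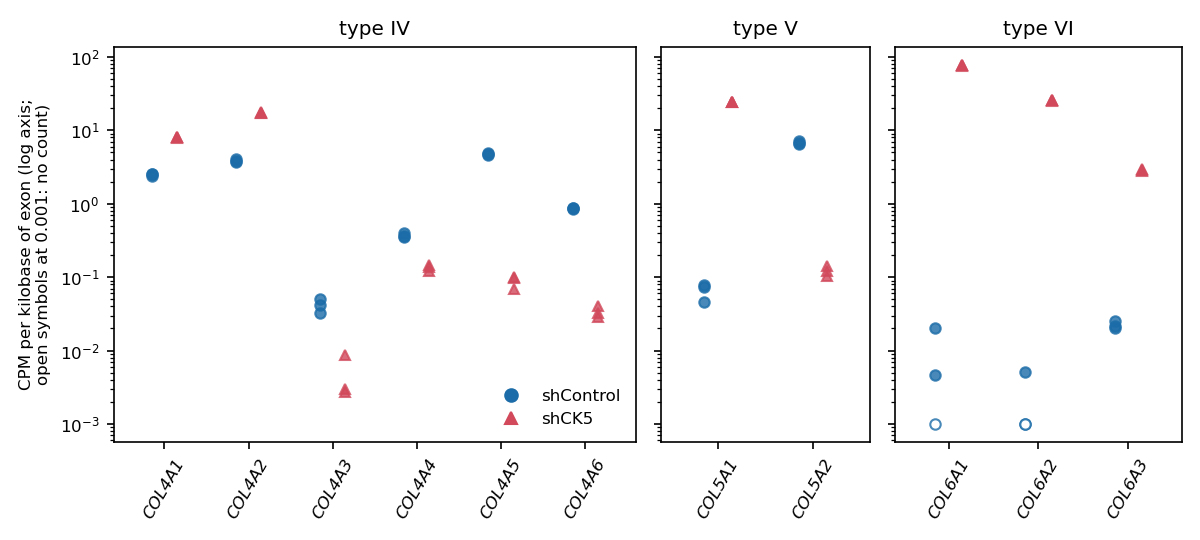
CPM per kilobase of exon (log y axis) of the chains of types IV, V and VI in each library; blue circles are the 3 shControl and red triangles the 3 shCK5 libraries, and open symbols at 0.001 are libraries with no count. COL4A1 and COL4A2 are higher in shCK5 and the other type IV chains lower, and COL5A1 and COL5A2 change places.

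Among fibrillar collagens the partner chains of type V moved in opposite directions. Type V collagen is a minor fibrillar collagen that nucleates type I fibrils, and its common form holds COL5A1 and COL5A2 chains together. COL5A1 (ENSG00000130635.15, chromosome 9, 134641774 to 134844843, plus strand) was at 0.51, 0.827 and 0.864 CPM in shControl and at 273, 272 and 268 CPM in shCK5. COL5A2 (ENSG00000204262.12, chromosome 2, 189031896 to 189225312, minus strand) was at 49.4, 53.3 and 48.9 CPM in shControl and at 0.781, 1.05 and 0.913 CPM in shCK5. Their log2 fold changes were 8.52 (SE 0.062, adjusted p = 1.72e-32) and -5.79 (SE 0.0782, adjusted p = 1.78e-27), the third highest and the lowest of the family. The ratio of COL5A1 to COL5A2 per kilobase was 0.00688, 0.0103 and 0.0118 in shControl and 233, 173 and 196 in shCK5. In either group 1 of the 2 partner chains was therefore present at a small fraction of the other. COL5A3, the third chain of this type, had at most 0.194 CPM in any library and was not tested.

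The other fibrillar genes were mostly low. COL27A1, a fibrillar collagen of cartilage, rose from 0.832, 1.03 and 0.697 CPM to 50.9, 51.5 and 49.7 CPM (log2 fold change 5.88, SE 0.0778, adjusted p = 1.2e-27). COL11A2, a chain of cartilage type XI collagen, fell from 6, 5.7 and 4.74 CPM to 0.756, 1.21 and 0.94 CPM (log2 fold change -2.50, SE 0.152). COL1A1, the main chain of type I collagen, was at 13.0, 12.7 and 12.9 CPM in shControl and 9.2, 7.63 and 9.28 CPM in shCK5, a small fall (log2 fold change -0.56, SE 0.0747, adjusted p = 2e-07). Its partner COL1A2 had 6 counts in all shControl and 24 in all shCK5 libraries, so neither group held both type I chains at comparable levels. The per-kilobase ratio of COL1A1 to COL1A2 was 138, 82.7 and 76.2 in shCK5, and in shControl it could not be computed for replicate 2, where COL1A2 had no count. COL3A1, the other abundant fibrillar collagen of stroma, had 32 counts in shControl and 4 in shCK5 and was not tested, nor was COL2A1, the cartilage collagen, with 16 and 6 counts. COL11A1 did not pass (0.124 ± 0.0205 and 0.139 ± 0.0494 CPM; adjusted p = 0.761). COL24A1 was at 0.916 ± 0.196 and 0.605 ± 0.172 CPM with overlapping groups. Its call (log2 fold change -0.60, adjusted p = 0.0403) was lost without shControl replicate 1 (adjusted p = 0.156) or 2 (0.0988) and without shCK5 replicate 1 (0.124) or 2 (0.157).

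The anchoring fibril collagen and 2 of 3 tested transmembrane collagens were higher in shCK5. COL7A1 (ENSG00000114270.17, chromosome 3, 48564073 to 48595267, minus strand), the collagen of anchoring fibrils, was at 2.16, 1.53 and 1.88 CPM in shControl and at 60.2, 57.4 and 59.4 CPM in shCK5 (log2 fold change 4.99, SE 0.07, adjusted p = 3.98e-27). COL17A1, a transmembrane collagen of hemidesmosomes, rose from 8.35, 8.22 and 7.64 CPM to 14.2, 15.1 and 12.7 CPM, a modest difference (log2 fold change 0.80, SE 0.0734, adjusted p = 3.3e-10). COL13A1 (ENSG00000197467.14, chromosome 10, 69801867 to 69964275, plus strand), a transmembrane collagen of cell adhesion sites, was at 11.8, 10.5 and 12.2 CPM in shControl and at 549.8, 553 and 534 CPM in shCK5 (log2 fold change 5.57, SE 0.0411, adjusted p = 2.23e-32). It alone held 31.6 ± 0.121% of the summed collagen level per kilobase in shCK5, against a rank of 11 among 44 in shControl. COL23A1, the third expressed transmembrane collagen, fell from 8.56, 7.67 and 8.67 CPM to 2.04, 1.81 and 2.24 CPM (log2 fold change -2.03, SE 0.106). COL25A1, a transmembrane collagen known from brain, had 18 and 26 counts per group and was not tested. The transmembrane class thus did not move as a unit: COL13A1 and COL17A1 differed 47.6-fold and 1.74-fold in the mean, and COL23A1 went down.

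FACIT genes that passed the test were lower in shCK5. Of 10 members 6 were tested, of which 5 fell, where 41.7% of all genes tested did, and COL9A3 did not pass (0.56 ± 0.133 and 0.401 ± 0.0892 CPM; adjusted p = 0.168). Its exons overlap those of TCFL5 over 45 bases. COL12A1 (ENSG00000111799.20, chromosome 6, 75084326 to 75206051, minus strand), a large collagen on the surface of type I fibrils, with the highest level of shControl per kilobase of exon (the second highest, after COL4A2, by longest transcript), was at 129, 129 and 123 CPM in shControl and at 47.3, 48.2 and 50.02 CPM in shCK5 (log2 fold change -1.39, SE 0.0331, adjusted p = 2.3e-22). COL14A1, its close relative, fell from 4.91, 4.24 and 4.95 CPM to 0.0756, 0.184 and 0.166 CPM (log2 fold change -5.05, SE 0.217). COL16A1 fell from 19.1, 20.4 and 18.8 CPM to 2.44, 3.12 and 3.01 CPM (log2 fold change -2.77). COL9A2, a chain of cartilage type IX collagen, fell from 17.5, 17.9 and 16.4 CPM to 3.00, 4.17 and 4.01 CPM (log2 fold change -2.21). The low COL21A1 was at 0.874 ± 0.201 and 0.14 ± 0.0837 CPM, with a log2 fold change of -2.62 that went to -3.21 without shCK5 replicate 2. COL12A1 stayed the highest FACIT gene in both groups. The other 4 members, COL9A1, COL19A1, COL20A1 and COL22A1, had at most 24 counts in any library.

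In the short-chain network and multiplexin classes the tested genes also parted. COL8A1, a short-chain network collagen of vessel walls and the cornea, was at 0.658, 0.965 and 0.864 CPM in shControl and at 107.5, 107.5 and 107.6 CPM in shCK5 (log2 fold change 7.01, SE 0.0647, adjusted p = 1.15e-30). Its partner chain COL8A2 was at 0.928 ± 0.0871 and 0.117 ± 0.0516 CPM (log2 fold change -2.96, SE 0.356). COL10A1, the growth plate collagen of this class, had no count in any library. Its row at 0 is not read as lack of expression, because it is not known how overlapping genes were counted.

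The multiplexin COL18A1, whose C-terminal fragment is endostatin, rose from 72.2, 70.04 and 68.6 CPM to 132, 143 and 135 CPM (log2 fold change 0.96, SE 0.0333). COL15A1, the other multiplexin, fell from 4, 4.09 and 4.93 CPM to 1.86, 1.44 and 1.77 CPM (log2 fold change -1.36, SE 0.136). Of the COL18A1 exons 16.4% overlap exons of SLC19A1, a folate carrier gene on the other strand that was at 54.02 ± 0.804 CPM in shControl and 1.53 ± 0.117 in shCK5, so the COL18A1 counts may hold or lack reads of the overlap; its part in the result was not tested. COL26A1, a secreted protein with short collagen stretches, fell from 15.4, 16.02 and 14.4 CPM to 0.428, 0.42 and 0.429 CPM (log2 fold change -5.16, SE 0.114), and COL28A1 was at 0.552 ± 0.113 and 0.0909 ± 0.0429 CPM (log2 fold change -2.57, SE 0.428).

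**Figure D4:**
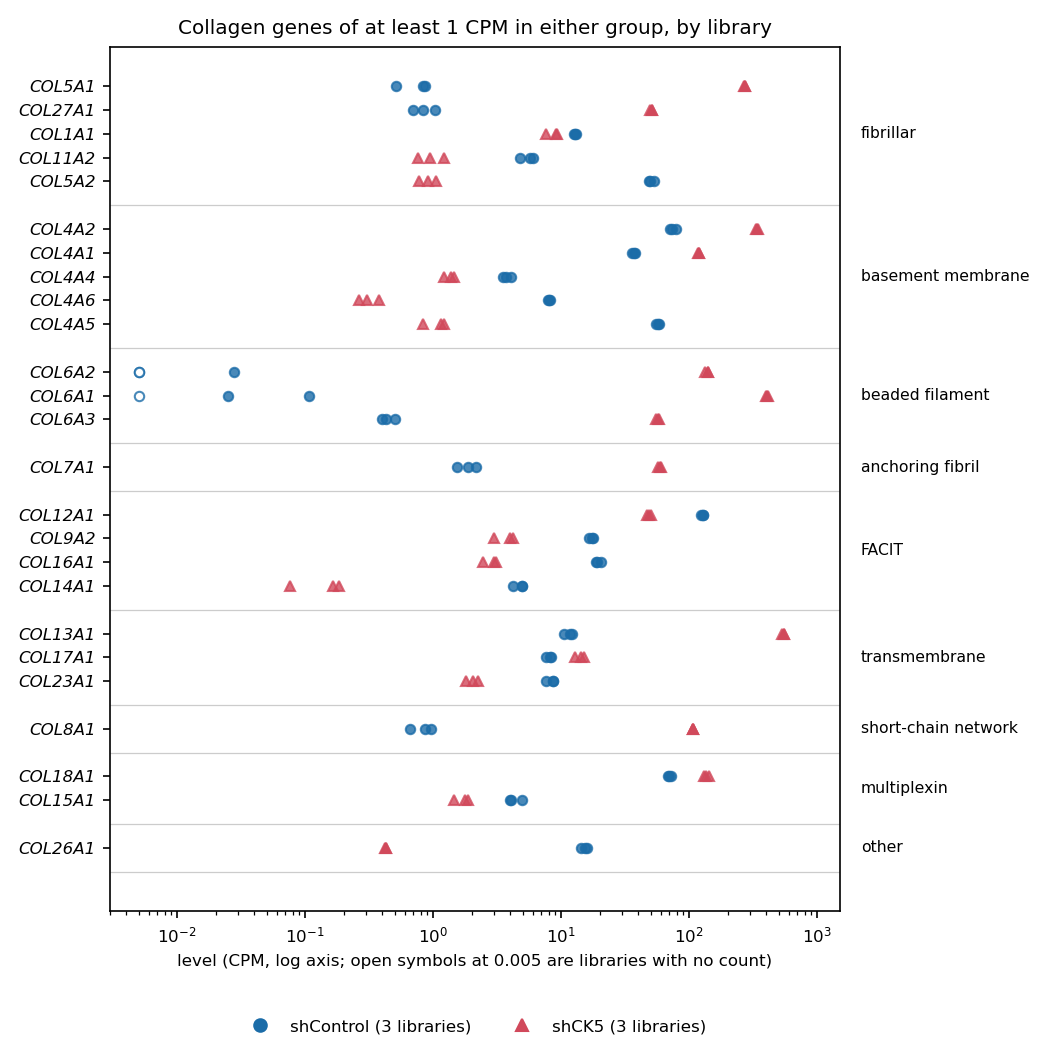
Levels (x axis, CPM on a log scale) of the 25 collagen genes with a mean of at least 1 CPM in either group, in each of the 3 shControl (blue circles) and 3 shCK5 libraries (red triangles), by class; open symbols at 0.005 are libraries with no count. The groups are apart for all 25 genes, 12 higher and 13 lower in shCK5. Over all genes tested, at any level, the groups were apart in 84.2%, and 82.7% were called.

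The 25 chains with a mean of at least 1 CPM in either group comprise all 12 that rose and 13 that fell. All 25 were thus called, against 82.7% of all genes tested at any level. The other 8 tested chains had group means of at most 0.928 CPM. Of these 6 were called lower and 2 did not pass. The 11 untested chains reached at most 0.231 CPM in a group mean, and at that depth it was not read whether their groups overlapped. Among them COL20A1 had 8 counts in shControl and 52 in shCK5, and COL19A1 had 40 and 17.

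Genes listed for collagen folding and modification, with others of collagen export and regulation, were more often higher than lower in shCK5. Of 25 tested, 19 were higher, 4 lower and 2 did not pass, where 40.9% of all genes tested were higher and 41.7% lower, with a median log2 fold change of 0.93 against -0.02 over all genes tested. CREB3L1, a transcription factor known to act on collagen genes, went from 0.174, 0.0752 and 0.251 CPM to 116, 118 and 109 CPM (log2 fold change 9.43, SE 0.0939, adjusted p = 4.64e-30). The collagen galactosyltransferase COLGALT2 rose by 3.61 and the prolyl 3-hydroxylase P3H3 by 6.69 (7.82 without shControl replicate 2). P4HA3, a prolyl 4-hydroxylase subunit, the lysyl hydroxylase PLOD2 and CTAGE5, a factor of collagen export, fell (log2 fold changes -1.99, -0.93 and -0.86). CTAGE5 was low in both groups, at 1.17 ± 0.144 and 0.639 ± 0.121 CPM. The listed gene MIA2 had at most 4 counts in any library and was not tested. The chaperone SERPINH1, which binds nascent collagen, rose by only 0.14 on the log2 scale, from 180.2 ± 3.95 to 198.5 ± 3.23 CPM; it was picked after its values were seen.

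Processing and cross-linking genes were mixed: 8 of 14 tested rose and 4 fell, against 40.9% and 41.7% of all genes tested (median log2 fold change 0.33). The cross-linking enzyme TGM2, transglutaminase 2, was at 1.58, 1.70 and 1.87 CPM in shControl and 816, 826 and 829 CPM in shCK5, and the lysyl oxidases LOXL4 and LOXL2 rose by 4.94 and 2.26 on the log2 scale. The propeptidases ADAMTS3 and ADAMTS14 and PCOLCE, an enhancer of propeptide cleavage, fell (log2 fold changes -3.95, -1.51 and -0.75; ADAMTS3 -4.63 without shCK5 replicate 1).

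Collagen receptors rose in 9 of 13 tested genes and fell in 3, against 40.9% and 41.7% of all genes (median log2 fold change 2.72). ANTXR2, a receptor that binds types IV and VI collagen, was at 0.725, 0.727 and 0.934 CPM in shControl and 129, 134 and 132 CPM in shCK5 (log2 fold change 7.37, SE 0.0607). ITGA2, the collagen-binding integrin subunit of epithelia, rose by 3.29 and CSPG4, a proteoglycan that binds type VI collagen, by 3.15. The 3 that fell were the collagen receptor kinases DDR1, from 603 ± 4.89 to 101 ± 1.97 CPM, and DDR2, and the adhesion receptor ADGRG1 (log2 fold changes -2.57, -1.69 and -2.06).

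Collagen-degrading enzymes and their inhibitors rose in 6 and fell in 5 of 11 tested genes, near the 40.9% and 41.7% of all genes (median log2 fold change 0.96). TIMP2 rose from 80.4 ± 3.03 to 563 ± 20.7 CPM, the cathepsin CTSL by 3.19 and the membrane protease MMP16 by 4.16, whereas FAP, the gelatinase MMP2 and the membrane protease MMP15 fell (log2 fold changes -4.56, -3.02 and -2.80). MMP1, TIMP1 and TIMP3 had no count in any library, and a row at 0 is not read as lack of expression because the sources used here do not say how overlapping genes were counted.

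Of 13 tested proteins that decorate fibrils 6 were higher and 6 lower, near the 40.9% and 41.7% of all genes (median log2 fold change -0.10). MFAP2, FN1 (fibronectin) and MATN3 rose by 6.37, 2.08 and 2.76, and BGN (biglycan), TNC (tenascin C) and SPARC fell (log2 fold changes -7.21, -2.67 and -2.45; BGN -7.84 without shCK5 replicate 1). Basement membrane partners of type IV collagen also lay near those shares, with 8 of 18 higher and 7 lower (median 0.12). The laminin genes LAMB3, LAMA3 and LAMB2 rose by 2.83, 2.70 and 1.05, and FBLN1 (fibulin 1), LAMA4 and SMOC1 fell (log2 fold changes -4.69, -3.19 and -1.42). No list was tested as a set, and the lists were chosen with earlier results of these data known.

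Markers of other cell types were measured beside the collagens. Of 18 fibroblast markers other than collagens 11 were tested, 4 higher and 6 lower (40.9% and 41.7% over all genes tested), and their summed level was 674 to 680 CPM in shControl and 168 to 174 in shCK5. Of these markers, DCN, LUM, PDGFRA and PDPN had means of at most 0.128 CPM in both groups and THY1 is listed at 0 in all 6 libraries. FBLN2, FBLN1 and FAP, of which FBLN1 and FAP also stand in the lists above, fell. PI16, PDGFRB and S100A4 rose by 7.80, 3.19 and 0.75. Endothelial markers rose in 6 and fell in 4 of 10 tested genes, from a summed 18.7 to 21.4 CPM in shControl to 164 to 172 in shCK5, of which ESAM gave 118 ± 3.97. ROBO4 rose by 7.81 (8.57 without shControl replicate 2) and EGFL7 by 1.11, and CDH5, an endothelial cadherin, fell to 0.0348 ± 0.0136 CPM. PECAM1 was higher, at 2.21 ± 0.688 CPM in shControl and 4.23 ± 0.434 in shCK5, as was KDR, at 0.918 ± 0.187 and 1.68 ± 0.146. VWF and TEK were lower. Leukocyte markers fell in 3 of 4 tested genes, CSF1R and CD14 among them, with summed levels of 16.3 to 19.0 and 2.89 to 3.82 CPM. Of 14 epithelial markers of the labelled cell type 13 fell and CLDN4 rose by 0.83. The summed level of the 14 was 11453 to 11692 CPM in shControl and 2344 to 2376 in shCK5. KRT5, the gene the hairpin targets, is among the 13 and in the sum, at 2044 ± 23.3 and 16.4 ± 0.845 CPM. Its fall is therefore no separate result about epithelial markers. ESRP1, an epithelial splicing factor, and the adhesion gene CDH1 fell (log2 fold changes -4.69 and -4.95). The part of these differences in the collagen results was not tested.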

How the data were processed

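RNA was measured in 6 libraries, and the authors deposited 1 table of whole-number counts for each gene name, not normalized. Per the submitters' processing notes, cutadapt, STAR, SAMtools and Cufflinks were used with build GRCh38; no versions are listed. The sources used here do not give the counting program, strand setting, annotation release or treatment of multi-mapped and overlapping reads. Between 63.1% and 65.0% of counts above 20 were even, and if that means each read of a pair was counted, counting intervals are too narrow.

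Counts were filtered with filterByExpr, scaled by TMM and tested over the 19567 remaining genes with the quasi-likelihood test of edgeR 4.0.16 in R 4.3.3, with no covariate and Benjamini-Hochberg adjustment (threshold 0.05). Each SE is the absolute log2 fold change divided by the square root of the test's F statistic. Where a group has few counts it can be smaller than the counting error, as for COL6A1 and COL6A2. In simulated data with these library sizes and 19036 genes tested, 100 genes were changed 2-fold and 100 were changed 4-fold. All genes shared a single dispersion, and the levels were those of shControl. Of the 2-fold changes 87% and of the 4-fold changes 98% were recovered, and 7.04% of the calls were false, above the 5% the threshold allows. In the data 82.7% of genes tested were called, so these rates do not carry over to the calls above. Exon lengths and positions came from GENCODE release 29 on GRCh38, not known to be the authors' annotation, in which each of the 44 symbols named 1 gene. Members, classes and gene lists were chosen with earlier results of these data known. Every collagen gene is accounted for, those of at least 1 CPM in either group with each library's value, and each list by up to 3 highest and 3 lowest passing genes of at least 1 CPM. Alternatives were library-size scaling, DESeq2 1.42.0 and its size factors, other filters, each library left out, a replicate block and another gene length.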

Additional observations from a re-analysis of the deposited data

How the results depend on the processing

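Collagen genes higher in shCK5 numbered 12 or 13 and those lower 13 to 20 under every alternative run, against 12 and 19. The count of 13 lower came from asking for a mean of 1 CPM, where fewer genes are tested. Of 388 values of single collagen genes under alternatives, 376 kept their side of the threshold and 12 lost the call. The sign changed in 1, that of COL11A1, which did not pass in either fit (log2 fold change 0.17, and -0.02 without shCK5 replicate 1). The 12 belong to COL24A1 and COL6A6, which also lost it with DESeq2 (adjusted p = 0.0725 and 0.0707). Endothelial markers called lower went from 4 to 1 with the filter of 1 CPM. Library-size scaling moved the median over all genes tested from -0.02 to -0.16 (log2) and the calls to 7167 higher and 9118 lower. The longest transcript as length moved the fibrillar share from 15.7% to 12.3% in shControl, that of basement membrane chains from 21.2% to 32.5% in shControl and from 8.82% to 14.7% in shCK5, that of FACIT chains from 29.4% to 25.5% in shControl, and in shCK5 those of beaded filament chains from 35.7% to 29.5% and of transmembrane chains from 32.4% to 36.4%.

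Deviations of same-numbered libraries from their group means were close to uncorrelated (Pearson's r over genes of 5.75e-05, -0.0105 and -0.00452). Differently numbered libraries gave -0.0242 to 0.0285. Genes of low count weigh as much as others here, so the check cannot exclude a shared culture or day. The labels do not say whether the numbers pair the libraries. With a replicate block 12 collagens were higher and 17 lower, COL24A1 and COL6A6 losing the call (adjusted p = 0.0696 and 0.0963), and 7918 and 8008 genes were called over all. Depth limits the 11 untested chains and the folds of COL6A1, COL6A2 and COL4A3, which rest on 2 to 10 counts in 1 group.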
